A study of Mus musculus with 12 samples.

Results

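The genes described here are Sirpa (ENSMUSG00000037902), Sirpb1a (ENSMUSG00000095788), Sirpb1b (ENSMUSG00000095028), Sirpb1c (ENSMUSG00000074677) and Cd47 (ENSMUSG00000055447), which encode signal regulatory proteins and the ligand of one of them. They were selected by symbol, with the genotype differences of these libraries already known, and all 5 were found among the 57010 genes counted and among the 15425 genes that passed the filter on low counts. RNA was sequenced from preosteoclasts of female mice, that is, bone marrow cells grown for 2 days with M-CSF and RANKL, the cytokines that drive marrow precursors towards osteoclasts. LSD1WT mice were compared with LSD1cKO mice, in which a floxed gene for the histone demethylase LSD1 is deleted by Cre under the LysM promoter, which is active in myeloid cells. For each genotype, 2 libraries came from mandibular marrow of mice with a ligature around a molar for 7 days (ligature-induced periodontitis, LIP), 2 from femoral marrow of such ligated mice and 2 from femoral marrow of mice with no ligature, which makes 12 libraries from 9 mice (5 LSD1WT and 4 LSD1cKO). Both sites were sampled in 3 of the ligated mice. The series text gives an age of 2 months, and the sequencing methods of the study give an older age.

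SIRPα is an inhibitory receptor of macrophages and other myeloid cells. When it binds CD47, a protein found on nearly all cells, its intracellular ITIM motifs recruit the phosphatases SHP-1 and SHP-2 and phagocytosis is restrained. SIRPβ proteins have a similar extracellular part but a short tail, and they signal through the adaptor DAP12, whose ITAM motif activates the kinase SYK. The SIRPα and CD47 pair is known to take part in the fusion of macrophages and of osteoclast precursors, and DAP12 is needed for normal osteoclast development.

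The Sirpb1 genes lie side by side on mouse chromosome 3, in the order Gm9733, Sirpb1a, Sirpb1b, Sirpb1c, Gm5150, between the carbonic anhydrase gene Car2 and Ythdf3. The 250 bases upstream of the annotated start are shown for the neighbouring genes whose RNA differed together between the genotypes, since they let a reader see how alike these genes are. They are RefSeq sequences of GRCm38.p6, given 5′ to 3′ on the minus strand, and capitals mark the window that holds, or is aligned with, the letters GAAANNGAA, a core of the interferon-stimulated response element.
Sirpb1a, chr3:15426428-15426677: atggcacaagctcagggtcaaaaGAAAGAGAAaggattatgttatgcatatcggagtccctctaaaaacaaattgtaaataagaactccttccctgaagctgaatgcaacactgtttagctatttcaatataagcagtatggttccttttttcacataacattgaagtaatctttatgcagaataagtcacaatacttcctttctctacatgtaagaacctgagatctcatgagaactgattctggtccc
Sirpb1b, chr3:15575066-15575315: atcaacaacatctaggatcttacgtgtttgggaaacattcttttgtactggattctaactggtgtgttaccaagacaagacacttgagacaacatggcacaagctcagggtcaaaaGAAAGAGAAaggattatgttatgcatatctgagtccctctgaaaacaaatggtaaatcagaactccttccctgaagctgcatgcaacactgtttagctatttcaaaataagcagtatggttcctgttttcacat
Sirpb1c, chr3:15848488-15848737: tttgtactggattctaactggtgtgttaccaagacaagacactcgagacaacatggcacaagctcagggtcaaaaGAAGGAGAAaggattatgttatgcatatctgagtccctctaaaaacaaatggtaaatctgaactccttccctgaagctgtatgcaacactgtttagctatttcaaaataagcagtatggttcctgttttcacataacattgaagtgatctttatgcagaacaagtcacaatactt
Gm5150, chr3:16006333-16006582: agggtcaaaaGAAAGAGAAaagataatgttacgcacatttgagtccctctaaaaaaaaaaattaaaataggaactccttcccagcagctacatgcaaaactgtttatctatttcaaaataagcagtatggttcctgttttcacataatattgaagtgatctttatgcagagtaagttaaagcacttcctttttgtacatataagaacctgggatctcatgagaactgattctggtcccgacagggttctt

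In the aligned parts, Sirpb1a was identical to Sirpb1b in 95.5% of 157 columns and to Sirpb1c in 94.9% of 198 columns. Sirpb1b and Sirpb1c were identical in 97.6% of 209 columns, and Gm5150 was identical to the Sirpb1 genes in 87% to 87.6%. The letters GAAANNGAA were found 227 bases upstream of the start in Sirpb1a, 134 bases upstream in Sirpb1b and 240 bases upstream in Gm5150. In Sirpb1c the aligned window, 175 bases upstream, differs from that of Sirpb1a by A4G, counted from the first capital base, and does not hold these letters. On either strand, 7.16% of 27025 RefSeq promoters of this length hold them. The PU.1 core GAGGAA (in 23.1% of promoters) and the AP-1 letters TGACTCA (4.43%) were in none of these 4 windows, and the GFI1 core AAATCA (12.7%) was in that of Sirpb1b alone. The Cd47 window (chr16:49855404-49855653, plus strand) held none of these motifs and had a GC content of 73.2%, against 35.2% to 38.8% in the other 4. The promoters of Sirpa and Gm9733 were not analysed here.

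The likeness extends to the transcripts. In GENCODE vM21, 40.1% of the 50-base windows of Sirpb1a transcripts, 57.7% of those of Sirpb1b and 46.1% of those of Sirpb1c also occur in another gene of the family. For windows of 100 bases the shares are 23.0%, 39.3% and 31.0%. Sirpa, Cd47 and Gm5150 share no such window with the family. How reads from shared sequence were counted is not given in the sources used here, so the split among Sirpb1a, Sirpb1b and Sirpb1c is uncertain. The level of their sum is uncertain too, since it would be too low if such reads were left out.

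Libraries held 21375805 to 32526751 counts (median 26364586), at which a count of 0 allows up to 0.0927 to 0.154 CPM (3 counts, counting error only). CPM are counts scaled to a common library size, after TMM scaling. Kdm1a (ENSMUSG00000036940), which encodes LSD1, lay between 61.2 and 71.3 CPM in LSD1WT and between 15.6 and 24.3 CPM in LSD1cKO. Femur LSD1WT replicate 2 stood apart in both ligated and unligated mice. The summed level of 15 osteoclast markers, including Acp5, Ctsk and Mmp9, was 1024 and 1038.8 CPM there, 28647 to 44046 CPM in the other LSD1WT libraries and 13630 to 31939 CPM in LSD1cKO. The 10 macrophage markers summed to 13912 and 10886 CPM in those libraries and to 1625 to 4709.5 CPM in the others. Mandible LSD1WT replicate 3 has a title that says mandible and a library name that says femur, and it was taken as mandible. The biological coefficient of variation between the mandible LSD1WT libraries was 0.0247, against 0.0987 to 0.716 in the other pairs, so their spread may not be that between mice. By the mouse numbers in the titles, the libraries of a condition come from different mice.

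Sirpa, the inhibitory receptor, was the most abundant of these genes per kb of exon. Mandible LSD1WT libraries had 825 and 836 CPM and mandible LSD1cKO libraries 760.4 and 992 CPM. Ligated femur LSD1WT had 1698 and 1998.5 CPM, against 1959 and 1631.5 CPM for LSD1cKO. Unligated femur LSD1WT had 1653 and 2830.1 CPM, against 2282.5 and 1589 CPM for LSD1cKO. The genotypes overlapped in every culture, and the highest value belonged to unligated femur LSD1WT replicate 2, one of the libraries nearly without osteoclast markers. Over the 3 cultures the LSD1WT mean was 1640 ± 756 CPM (SD, n = 6) and the LSD1cKO mean 1536 ± 574 CPM (SD, n = 6), a fitted ratio of 0.960 with a 95% interval from 0.735 to 1.25. Changes within that interval could not be seen at this spread.

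Sirpb1a was low in every LSD1WT library and higher in every LSD1cKO library. Mandible LSD1WT libraries had 0.979 and 0.514 CPM (24 and 14 counts), against 4.95 and 7.54 CPM (144 and 244 counts) for LSD1cKO. For the ligated femur the LSD1WT values were 1.49 and 2.67 CPM, against 25.3 and 23.1 CPM. For the unligated femur they were 1.53 and 1.82 CPM, against 13.2 and 13.9 CPM. The highest LSD1WT value was below the lowest LSD1cKO value, even across cultures.

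Sirpb1b followed the same order with a wider spread. Its mandible values were 0.490 and 1.17 CPM for LSD1WT, against 7.63 and 8.16 CPM for LSD1cKO. Its ligated femur values were 1.52 and 5.23 CPM, against 25.4 and 28.5 CPM. Its unligated femur values were 1.95 and 3.40 CPM, against 11.5 and 23.0 CPM. The genotypes again did not overlap over the 12 libraries, and the higher LSD1WT value in the ligated femur was that of replicate 2.

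Sirpb1c took the largest share of the Sirpb1 counts in every library but unligated femur LSD1WT replicate 2, where it had 37% and Sirpb1b 41%. Mandible LSD1WT libraries held 1.27 and 2.05 CPM and those of LSD1cKO 13.1 and 17.4 CPM. Femur libraries of ligated mice held 3.91 and 7.65 CPM for LSD1WT and, for LSD1cKO, 61.7 and 70.3 CPM, the highest values of any Sirpb1 gene. Femur libraries of unligated mice held 3.97 and 3.06 CPM, against 35.4 and 45.4 CPM. The genotypes did not overlap in any culture.

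Cd47, the ligand of SIRPα, differed much less. Its mandible level was 142 and 145 CPM for LSD1WT, against 155 and 177 CPM for LSD1cKO. Its level in the ligated femur was 153 and 248 CPM, against 263 and 273 CPM. Its level in the unligated femur was 149 and 191 CPM, against 229 and 234 CPM. Within each culture both LSD1cKO libraries were above both LSD1WT libraries, but over the 12 libraries the genotypes overlapped, since mandible LSD1cKO lay below some femur LSD1WT values.

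**Figure D1:**
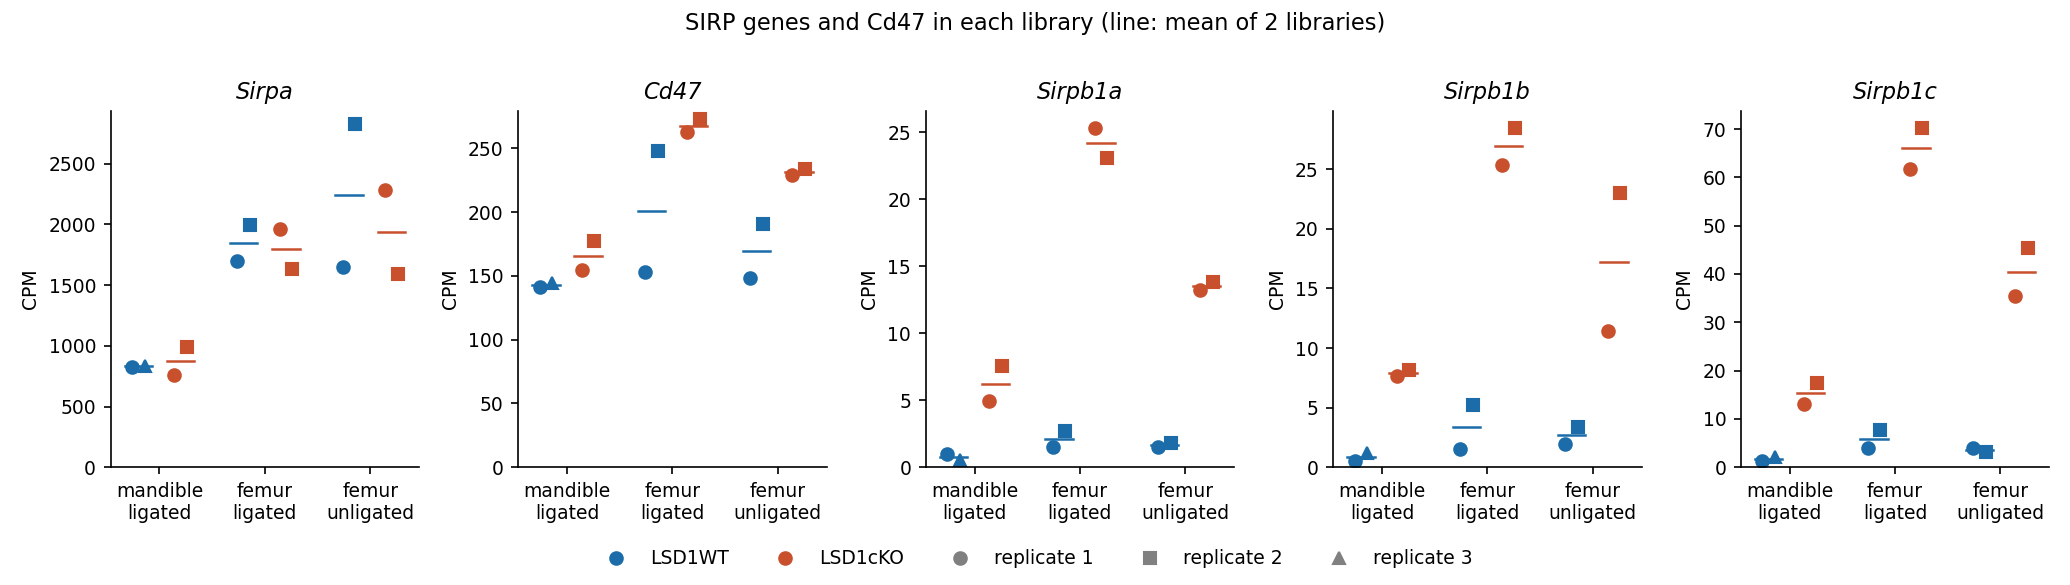
CPM (vertical axis, starting at 0) of each gene in the 12 libraries, by culture (horizontal axis) and genotype (colour); symbols give the replicate number and lines the mean of 2 libraries. The Sirpb1 panels separate the genotypes in every culture, with Sirpb1c at 1.27 to 7.65 CPM in LSD1WT and 13.1 to 70.3 CPM in LSD1cKO, and the Sirpa panel does not.

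Fitted over the 3 cultures with edgeR's quasi-likelihood method, with culture and genotype as terms, the LSD1cKO to LSD1WT ratio was 9.27 for Sirpb1a (95% interval 6.49 to 13.2), 7.83 for Sirpb1b (4.56 to 13.4) and 10.7 for Sirpb1c (7.72 to 14.7). As log2 fold changes these were 3.21 (SE 0.23), 2.97 (SE 0.35) and 3.42 (SE 0.21). For Cd47 the ratio was 1.28 (1.05 to 1.57), a log2 fold change of 0.36 (SE 0.13). Of the 5 genes, 3 had a Benjamini-Hochberg adjusted p under 0.05 and a higher level in LSD1cKO, namely the Sirpb1 genes, and the same 3 did not overlap over the 12 libraries. Among all genes tested, 3.00% were called higher, 0.532% were called lower and 1.98% were higher without overlap. The genes were chosen with this contrast in view, so these counts describe them and test nothing. The median log2 fold change was 2.97 for the 5 genes and -0.0648 for all genes tested. Without both femur LSD1WT libraries numbered 2, Cd47 was called as well, at a log2 fold change of 0.54, in a fit that called 24.2% of all genes.

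In single cultures the Sirpb1 differences were of similar size. In the mandible the log2 fold changes were 3.06 (SE 0.43) for Sirpb1a, 3.23 (SE 0.69) for Sirpb1b and 3.20 (SE 0.40) for Sirpb1c. In the ligated femur they were 3.55 (SE 0.43), 3.01 (SE 0.66) and 3.52 (SE 0.40). In the unligated femur they were 3.01 (SE 0.42), 2.69 (SE 0.66) and 3.52 (SE 0.40). Cd47 had values of 0.21, 0.42 and 0.45 (SE 0.26 in each), and Sirpa had 0.08, -0.04 and -0.21 (SE 0.34 in each). In each culture 4 of the 5 genes were higher without overlap, beside 34.1% of all genes in the mandible, 14.8% in the femur of ligated mice and 9.82% in that of unligated mice.

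With 2 libraries a condition, 0 of the 5 genes passed an adjusted p of 0.05 in any single culture with edgeR as set here, where 0%, 0.00648% and 0% of all genes did. In each culture 3 of the 5 were higher at an unadjusted p under 0.05, beside 3.81%, 3.91% and 3.61% of all genes. Calls within a culture changed with the settings. DESeq2 called 3 of the 5 in each culture, beside 0.947%, 1.43% and 0.807% of all genes. Without the filter on low counts edgeR called 3 for mandible, 3 for ligated femur and 2 for unligated femur cultures, beside 0.166%, 0.343% and 0.0884% of all genes. Monocyte markers moved along in the mandible, where the 6 of them summed to 55.2 and 59.2 CPM in LSD1WT and to 108 and 134 CPM in LSD1cKO. Osteoclast markers were lower there, at 28779 and 28647 CPM against 16571 and 16648 CPM. The sum of the 6 stromal markers was lower as well, at 41.7 and 41.9 CPM against 10.2 and 4.42 CPM. Of the 4 tested, 3 had fitted values below 0 there and 1 above 0. The monocyte, osteoclast and stromal sums overlapped between the genotypes in both femur cultures. The summed macrophage markers had a smaller gap in the mandible (2072.5 and 2094.4 CPM in LSD1WT, 1625 and 1999 CPM in LSD1cKO). Of these 10 genes, however, 7 had fitted values above 0 there and 3 below, beside 49.9% of all genes above 0. Their median log2 fold change was 0.455, so the lower sum does not describe most of the list. Summed dendritic cell markers had a smaller gap in the ligated femur (13.6 and 9.54 CPM, against 17.6 and 18.8 CPM). Neutrophil markers summed there to 115 and 276.4 CPM, against 303 and 276.6 CPM. Of 8 tested, 5 had fitted values above 0 and 3 below. In the mandible, dendritic cell sums were 8.98 and 8.40 CPM, against 9.03 and 9.89 CPM, with 3 genes above 0 and 2 below. B cell sums there were 9.06 and 8.95 CPM, against 9.62 and 11.6 CPM, with 4 genes above 0 and 0 below. These sums did not overlap either. Markers of T and NK cells, erythroid cells and mast cells each summed to at most 0.687 CPM in any library. The part of such shifts in the Sirpb1 values was not tested, and in bulk RNA more cells of a type and more RNA per cell cannot be told apart.

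**Figure D2:**
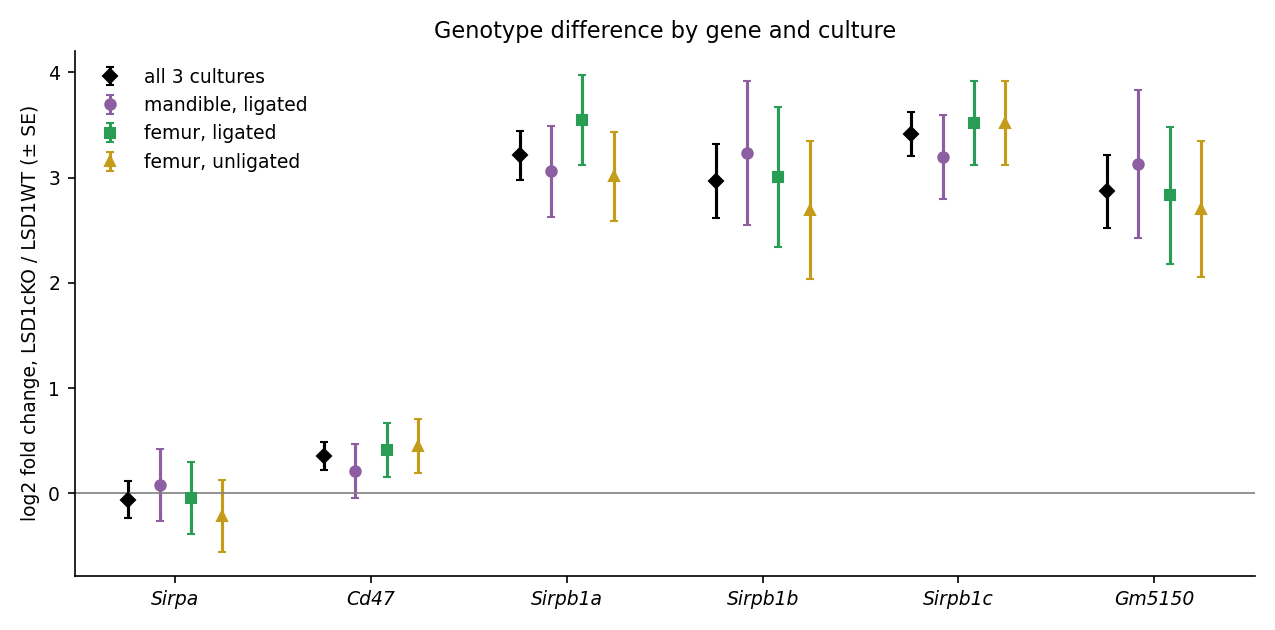
Log2 fold change of LSD1cKO over LSD1WT (vertical axis; points, with bars of 1 SE) for each gene over the 3 cultures and in each culture. The Sirpb1 genes and Gm5150 lie between 2.69 and 3.55, Cd47 between 0.21 and 0.45, and Sirpa between -0.21 and 0.08.

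Whether the genotype difference itself changed with the site or the ligature was asked with interaction contrasts. Between mandible and ligated femur, the log2 fold changes differed by -0.49 (95% interval -1.80 to 0.82) for Sirpb1a, 0.23 (-1.77 to 2.22) for Sirpb1b and -0.32 (-1.52 to 0.88) for Sirpb1c. None of the 5 genes was called, as was the case for 0% of all genes. In edgeR's test 0 of the 5 were under an unadjusted p of 0.05, beside 149 of 15425 genes. Between ligated and unligated femur the differences were 0.54 (-0.74 to 1.81), 0.32 (-1.69 to 2.32) and -0.003 (-0.967 to 0.961). For Cd47 the site and ligature contrasts were -0.20 (-1.03 to 0.62) and -0.03 (-0.85 to 0.79), and for Sirpa they were 0.12 (-0.99 to 1.23) and 0.17 (-0.94 to 1.27). The intervals are wide and leave room for a change of over 1 log2 unit in most cases.

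Within a genotype, all 5 genes were lower in the mandible than in the ligated femur. In LSD1cKO the log2 difference was -1.96 (SE 0.40) for Sirpb1a, -1.77 (SE 0.63) for Sirpb1b, -2.11 (SE 0.38) for Sirpb1c, -1.04 (SE 0.35) for Sirpa and -0.69 (SE 0.26) for Cd47. In LSD1WT the corresponding values were -1.47, -1.998, -1.79, -1.16 and -0.49. In both genotypes all 5 were lower without overlap, beside 31.5% of all genes in LSD1WT and 35.0% in LSD1cKO. The LSD1cKO libraries of both sites came from the same mice, and the fit did not pair them. No gene of the 5 had an adjusted p under 0.05 in edgeR as set here, though some alternative settings called members in each genotype. In edgeR's test 4 in LSD1WT and 5 in LSD1cKO were lower at an unadjusted p under 0.05, beside 14.7% and 6.81% of all genes. The LSD1WT values lean on replicate 2 of the ligated femur, and without it those of Sirpb1b and Cd47 were -0.86 and -0.10. They also lean on the library whose title and name give different sites. With that library taken as femur, Sirpb1a went from -1.47 to -0.62 and Sirpa from -1.16 to -0.84.

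Ligation was compared in femur cultures from different mice. In LSD1cKO the ligated libraries were above the unligated ones without overlap for Sirpb1a (log2 difference 0.84, SE 0.39), Sirpb1b (0.64, SE 0.61), Sirpb1c (0.71, SE 0.36) and Cd47 (0.21, SE 0.26), which is 4 of 5 genes beside 14.0% of all genes. The Sirpb1b value lay at 1.25 without unligated femur LSD1cKO replicate 2 and at 0.27 without replicate 1. Sirpa overlapped. In LSD1WT all 5 overlapped, while 5.25% of all genes were higher and 3.93% lower without overlap. None was called in either genotype, as was the case for 0% of all genes. In edgeR's test 0 of the 5 were under an unadjusted p of 0.05, beside 118 (LSD1WT) and 148 (LSD1cKO) of 15425 genes.

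Together the Sirpb1 genes summed to 2.73 to 15.5 CPM in LSD1WT (67 to 303 counts) and to 25.7 to 122 CPM in LSD1cKO (748 to 2892 counts). Sirpb1c made up 51.1% to 58.9% of these counts in LSD1cKO and 37% to 56.5% in LSD1WT. Sirpb1b made up 19.1% to 29.7% and 17.9% to 41%, and Sirpb1a 16.8% to 22.8% and 13.7% to 35.8%. The mix of the 3 genes thus overlapped between the genotypes while their sum did not.

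Per kb of exon, the Sirpb1 sum was 0.487% to 1.24% of the Sirpa level in LSD1WT and 4.17% to 11.8% in LSD1cKO. For mandible libraries it was 0.560% and 0.699% in LSD1WT, against 5.41% and 5.38% in LSD1cKO. For ligated femur libraries it was 0.648% and 1.24%, against 9.18% and 11.8%, and in the unligated femur 0.720% and 0.487% against 4.17% and 8.15%. Sirpa remained far above the Sirpb1 genes in every library. The exon lengths include sequence that the Sirpb1 genes share, so these percentages would be too low if shared reads were not counted. The Sirpa level was 7.38 to 18.9 times that of Cd47 per kb in LSD1WT and 6.28 to 12.7 times in LSD1cKO, which overlap.

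**Figure D3:**
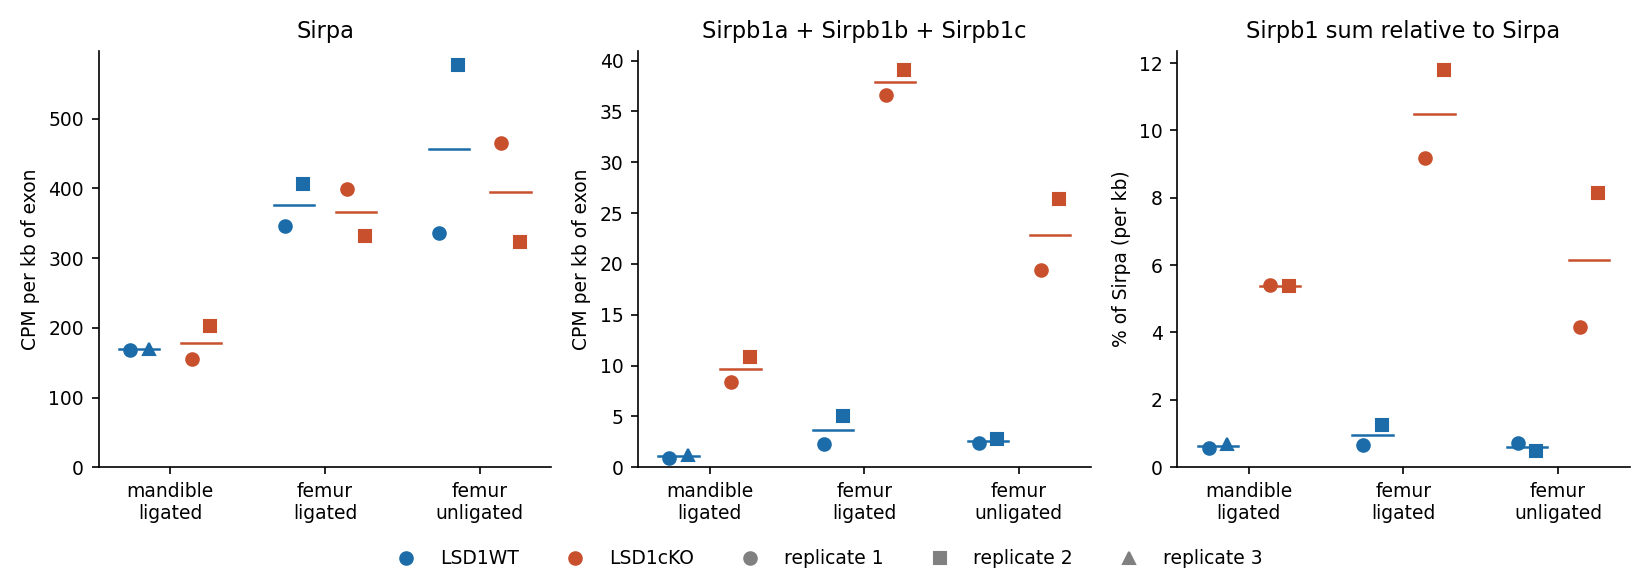
Sirpa (left), the sum of Sirpb1a, Sirpb1b and Sirpb1c (middle), both in CPM per kb of exon, and the sum as a percentage of Sirpa (right), all on vertical axes from 0, in the 12 libraries by culture and genotype; lines are the mean of 2 libraries. The share lies at 0.487% to 1.24% in LSD1WT and 4.17% to 11.8% in LSD1cKO, so each LSD1cKO library is above each LSD1WT library.

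The neighbouring gene Gm5150 (ENSMUSG00000078780), a SIRP family gene without an assigned name, ran alongside the Sirpb1 genes. Mandible LSD1WT libraries had 0.245 and 0.330 CPM, against 2.27 and 2.84 CPM for LSD1cKO. The ligated femur gave 0.841 and 3.69 CPM, against 15.0 and 17.0 CPM, and the unligated femur 1.76 and 2.28 CPM, against 8.80 and 17.5 CPM. The genotypes did not overlap in any single culture. Of all genes, 34.1% (mandible), 14.8% (ligated femur) and 9.82% (unligated femur) were higher without overlap. Over the 12 libraries the genotypes overlapped, since ligated femur LSD1WT replicate 2 lay above both mandible LSD1cKO libraries. Over the 3 cultures the log2 fold change of Gm5150 was 2.87 (SE 0.35), with an adjusted p of 0.00246 (edgeR's quasi-likelihood test, Benjamini-Hochberg). It shares no 50-base window with the Sirpb1 transcripts. Gm9733 (ENSMUSG00000078783), at the other end of the row, was close to the limit of detection, with means of 0.169 ± 0.182 CPM for LSD1WT and 0.374 ± 0.273 CPM for LSD1cKO (SD, n = 6 each), and its adjusted p was 0.379 in edgeR's quasi-likelihood test.

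The genes whose log2 CPM was most like that of each gene were sought over the 12 libraries among 10282 genes with a mean of at least 5 CPM. For Sirpb1a they were Gca (Pearson r 0.985), Sirpb1c (0.980) and Ly6e (0.976). For Sirpb1c they were Ly6a (0.983), Sirpb1a (0.980) and Ly6e (0.979), and for Sirpb1b they were Gm34084 (0.981), Sirpb1c (0.974) and Gpr85 (0.973). Cd47 was most like Ogfr (0.977), Gvin3 (0.968) and H2-DMa (0.962), and Sirpa was most like Fggy (0.963), Cds1 (0.962) and Irf2 (0.957). These values describe 12 libraries that fall into 2 genotypes and 3 cultures and share mice, so any gene with the same differences scores high. Within the 6 LSD1cKO libraries Cd47 and Sirpb1c had r = 0.994, and within the 6 LSD1WT libraries r = 0.757. The 0.994 was the highest LSD1cKO value among pairs of the 5 genes and Gm5150, and the lowest was 0.657 (Sirpa and Sirpb1b). The 6 libraries of a genotype still fall into 3 cultures, so genes with the same culture differences score high here too.

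All gene lists here, including that of Gm5150 and Gm9733, were chosen with earlier results of these data known. Their counts and adjusted p values describe the lists and are no independent test. The partners through which SIRPα signals did not pass the threshold. Of 7 tested genes, among them the phosphatases Ptpn6 (SHP-1) and Ptpn11 (SHP-2), 0 had an adjusted p under 0.05 over the 3 cultures, and the median log2 fold change was -0.0568. The values farthest from 0 were those of the adaptor Fyb, at 0.39 (SE 0.37, adjusted p 0.684), and of Ptpn11, at -0.29 (SE 0.13, adjusted p 0.287), in edgeR's quasi-likelihood test. Ptpn11 alone of the 7 had an unadjusted p under 0.05, as did 16.1% of all genes. Fyb depended on the femur LSD1WT libraries numbered 2. Without both it was called, at 1.19 (SE 0.10, adjusted p 2.91e-05 in edgeR's test).

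Of 8 genes of the DAP12 pathway, 1 was called higher and 0 lower, beside 3.00% and 0.532% of all genes. The median was 0.00977, with 4 fitted values above 0 and 4 below. Blnk, an adaptor downstream of SYK, went from 50.01 ± 18.3 CPM in LSD1WT to 101 ± 33.2 CPM in LSD1cKO (SD, n = 6 each), a log2 fold change of 1.03 (SE 0.14, adjusted p 0.00426 in edgeR's quasi-likelihood test). Tyrobp, which encodes DAP12 itself, had means of 661 ± 237 and 704 ± 212 CPM (SD, n = 6 each), and Syk had a log2 fold change of 0.08. The kinase gene Tec stood at -0.43 (SE 0.12, adjusted p 0.0862 in edgeR's test).

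Of the 7 tested genes for other CD47 ligands, partners and the enzymes that modify it, 0 were called, with a median of -0.381. The thrombospondin genes Thbs2 and Thbs1, whose products bind CD47, had log2 fold changes of -2.05 (SE 0.87) and -1.55 (SE 0.69) with adjusted p values of 0.274 and 0.304 in edgeR's test, and were the 2 of the list under an unadjusted p of 0.05. Thbs1 ran from 19.5 to 635 CPM within LSD1WT, and without both femur LSD1WT libraries numbered 2 its value was 0.04 (SE 0.47). Thbs2 was at -2.12 (SE 0.48) there and was called, but its level was close to the limit of detection. Over all libraries its mean was 0.928 CPM in LSD1WT (lowest 0.0414) and 0.272 CPM in LSD1cKO (lowest 0).

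Other inhibitory receptors with ITIM motifs had 3 of 14 genes called higher and 0 lower, beside 3.00% and 0.532% of all genes. The median was 0.427. All 14 fitted values were above 0, as were 40.9% of those of all genes, but for 5 of the 14 the mean CPM was lower in LSD1cKO than in LSD1WT. By culture, 14 were above 0 for mandible, 7 for ligated femur and 9 for unligated femur libraries, beside 49.9%, 39.5% and 44.6% of all genes. Cd72, a receptor known from B cells, went from 37.9 ± 20.7 to 134 ± 55.8 CPM (SD, n = 6 each), a log2 fold change of 1.81 (SE 0.22, adjusted p 0.00252 in edgeR's test). Pirb, a receptor for MHC class I, went from 207 ± 98.03 to 418 ± 141 CPM (SD, n = 6 each), or 1.02 (SE 0.17, adjusted p 0.00896 in edgeR's test). Pilra had 0.60 (SE 0.13, adjusted p 0.0283 in edgeR's test), and its call was lost under 6 alternatives. The 6 B cell markers summed to 8.95 to 223 CPM in LSD1WT and 9.62 to 47.7 CPM in LSD1cKO, and most of that was Ighm (means of 61.4 and 25.6 CPM). Of the 4 tested, 3 had fitted values above 0, namely Ms4a1 at 2.17, Cd79a at 1.59 and Cd79b at 0.32, and Ighm was at -0.88. None was called, and the means of Ms4a1 and Cd79a were at most 0.395 CPM in either genotype. Their part in the Cd72 value was not tested.

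Among 9 tested genes for phagocytosis receptors and eat-me signals, 1 was called higher and 0 lower, beside 3.00% and 0.532% of all genes. The median was -0.0344, with 4 fitted values above 0 and 5 below. Axl, a receptor tyrosine kinase for dying cells, went from 17.7 ± 6.11 to 47.5 ± 7.79 CPM (SD, n = 6 each), a log2 fold change of 1.43 (SE 0.22, adjusted p 0.00611 in edgeR's test), and every LSD1cKO library was above every LSD1WT library. Among 7 tested fusion genes, 0 were called, with a median of -0.189. The values farthest from 0 were those of the tetraspanin genes Cd81, at -0.59 (SE 0.92, adjusted p 0.825), and Cd9, at 0.56 (SE 0.24, adjusted p 0.291), in edgeR's test, and Cd9 was the 1 of the 7 under an unadjusted p of 0.05.

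**Figure D4:**
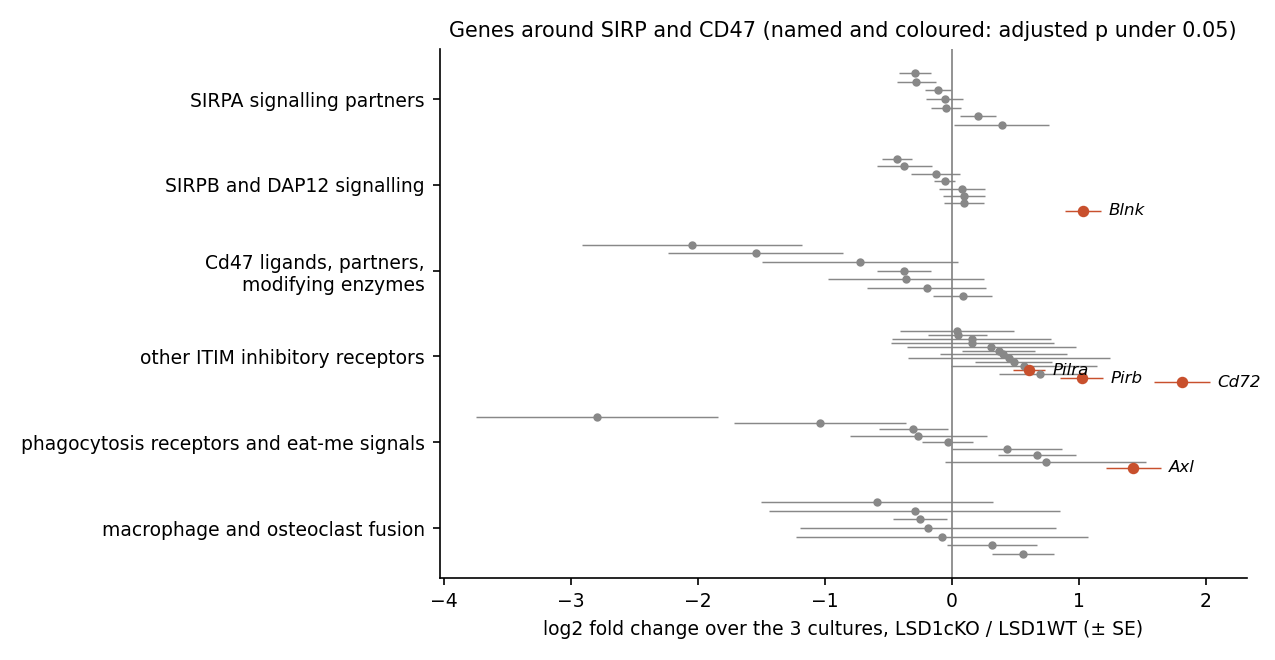
Log2 fold change of LSD1cKO over LSD1WT over the 3 cultures (horizontal axis; points, with bars of 1 SE) for the tested genes of 6 lists (vertical axis); coloured, named points had an adjusted p under 0.05. The named genes are Blnk at 1.03, Pilra at 0.60, Pirb at 1.02, Cd72 at 1.81 and Axl at 1.43, all higher in LSD1cKO.

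Over the 6 lists, 5 of 52 tested genes were called higher and 0 lower (9.62%), beside the 3.00% and 0.532% of all genes. The lists were chosen with earlier results of these data known, so these shares describe them and test nothing. The number of calls changed with the femur LSD1WT libraries numbered 2, while the 5 called genes kept their direction. Their log2 fold changes were 0.97 (Blnk), 1.11 (Pirb), 0.61 (Pilra), 1.60 (Cd72) and 1.82 (Axl) without those libraries. Without both of them, 21 of the 52 were called higher and 6 lower, in a fit that called 24.2% of all genes in either direction. There, 11 of the 14 other ITIM receptors were called higher, and in the fusion list 3 genes were called higher (Cd81, Cd9 and Adam8) and 3 lower (Dcstamp, Ocstamp and Atp6v0d2). Among the signalling and ligand lists Fyb, Blnk and the enzyme gene Qpct were called higher there, and Tec, Thbs2 and the integrin gene Itgb3 lower. Cd81 turned from -0.59 to 1.60 on the log2 scale. The Sirpb1 genes were called in both fits, with log2 fold changes of 3.43, 3.51 and 3.55 without these libraries.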

How the data were processed

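Per the labels and the processing notes, the authors sequenced RNA of preosteoclasts, and the notes name HISAT2 2.1.0, featureCounts, FastQC, edgeR and the build GRCm39 without saying what each was used for. The deposited table holds raw read counts per Ensembl gene, without normalization; strand and multi-mapping settings are not given in the sources used here. No deposited per-sample column was left unused. Samples were grouped by their titles. The members and gene lists were chosen with earlier results of these data known. In R 4.3.3, edgeR 4.0.16 (filterByExpr, TMM, quasi-likelihood test, Benjamini-Hochberg over 15425 genes) was fitted to all 12 libraries, once with culture and genotype as terms and once with 1 coefficient per condition. Intervals are 95%, and log2 CPM used a prior count of 2. The text names the 5 members, Kdm1a, the called genes of each list (otherwise the 2 with the largest fold change), and the 3 genes most correlated with each member; Gm9733, Tyrobp, Syk, Ptpn6, Tec, B cell markers and genes called without 2 libraries were named besides. Both models were tested on simulated counts. Replicate numbers are shared between groups, but their deviations correlated at -0.197 to 0.78 over pairs of groups (0.026 for the mice that gave both LSD1cKO sites), so they were not used for pairing. The alternatives were DESeq2 1.42.0, RLE and upper-quartile scaling, other filters, libraries left out, the compared conditions alone, a replicate block, limma 3.58.1 voom with a mouse block, the Sirpb1 genes summed and, chosen after seeing the data, the mandible LSD1WT pair summed. Exon lengths are from GENCODE vM21 and promoters from RefSeq. Protein sequences were not used here.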

Additional observations from a re-analysis of the deposited data

How the results depend on the processing

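The Sirpb1a, Sirpb1b and Sirpb1c differences over the 3 cultures were called under all 23 alternatives, with log2 fold changes of 3.12 to 3.43, 2.84 to 3.51 and 3.25 to 3.74. Among these alternatives is the sum of the 3 genes, whose value stands for each of them. The 3.25 is the value of that sum and not of Sirpb1c alone. The genes were chosen with this contrast known in the same libraries, so these refits describe how stable the values were and test nothing. Cd47 stayed above 0 (0.33 to 0.54), and Sirpa ran from -0.08 to 0.16. No direction of a called value was turned. With the replicate block the values over the 3 cultures were 3.21, 3.07 and 3.42 for the Sirpb1 genes, 0.37 for Cd47 and -0.05 for Sirpa, and 633 genes were called. In single cultures the block called 1 member, Sirpb1c in the ligated femur (3.56), beside 0.0194% of all genes. Also in the ligated femur, limma voom with a mouse block called 2 members (0.0778% of all genes), RLE scaling 2 (0.0583%), the filter at a mean of 10 counts 2 (0.0704%) and the doubtful library taken as ligated femur 1 (0.0987%). With both femur LSD1WT libraries numbered 2 left out, 3867 genes and 27 pathway genes were called, and the log2 fold changes were 4.11 (Sirpb1a), 4.23 (Sirpb1b), 4.16 (Sirpb1c) and 0.89 (Cd47) in the ligated femur and 0.24 (Sirpa) in the unligated femur. With the doubtful mandible LSD1WT library taken as ligated femur, 348 genes were called, and the values were 4.03 (Sirpb1b) and 3.62 (Sirpb1c) in the mandible and 4.05 (Sirpb1a), 3.95 (Sirpb1c) and 0.33 (Sirpa) in the ligated femur. DESeq2 called 1248 genes. With the mandible LSD1WT pair summed, an alternative chosen after seeing the data, 335 were called. With the 3 Sirpb1 genes summed into 1 row, 1 member was called, as the construction sets. When the 4 mandible libraries were fitted by themselves, 4 members were called, Cd47 among them, beside 37.7% of all genes, in a fit whose dispersion rests in part on the nearly identical LSD1WT pair.

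Leaving out 1 library at a time gave 2.70 to 3.63 for Sirpb1a, 2.78 to 4.03 for Sirpb1b and 2.93 to 3.62 for Sirpb1c in the mandible. In the ligated femur it gave 3.27 to 4.02, 2.45 to 4.14 and 3.20 to 4.07, with 0.20 to 0.80 for Cd47, and in the unligated femur -0.48 to 0.24 for Sirpa. The number of pathway genes called ran from 4 to 8, the 8 without unligated femur LSD1WT replicate 2, and that of all genes from 298 (without ligated femur LSD1cKO replicate 2) to 653. The cause of these changes was not tested. Pilra lost its call without a filter, without mandible LSD1cKO replicate 2, without either ligated femur LSD1cKO library, with the mouse block and at a log2 fold change of at least 1. With both femur LSD1WT libraries numbered 2 left out, 3, 4 and 3 members were called in the mandible, ligated femur and unligated femur, beside 5.85%, 9.35% and 2.47% of all genes. Leaving out 1 femur LSD1WT library called 2 members in some cultures, beside 0.0803% to 0.272% of all genes. At this depth a gene under 0.0927 to 0.154 CPM could not be told from absent.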
